A study of Mus musculus with 12 samples.

Results

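The heat shock proteins and chaperones described here are 77 rows, under 76 gene symbols, of the 14460 genes in the deposited table of mouse heart macrophages. They were chosen by symbol alone: the Hsp70 genes (Hspa), the small heat shock protein genes (Hspb), the mitochondrial chaperonin pair Hspd1 and Hspe1, Hsph1, the Hsp90 genes, the J proteins (Dnaja, Dnajb and Dnajc), the TRiC subunits (Tcp1 and Cct2 to Cct8) and the BAG genes (Bag1 to Bag6). Hspb2 and Hspb3 had no row, and Hspa14 stood on 2 identifiers. The first, with a mean signal of 24.6, is named Gm45902 in GENCODE M21, where it overlaps Hspa14. The second is not held there. Every call given under Hspa14 is that of the first. Of the 77 rows, 73 passed a filter of a mean normalised read count of at least 1 and were tested. The other 4 were Bag2, Dnaja4, Hspa12a and the pseudogene Dnajc19-ps, and no library had more than 2.4 of them.

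The macrophages came from hearts of Cx3cr1 GFP/+ mice aged 2-3 month, which carry GFP in place of 1 copy of the chemokine receptor gene Cx3cr1, so that the controls carried the allele too. The 4 groups of 3 libraries were hearts that had no surgery (day 0) and hearts taken 3, 7 and 30 days after cryoinjury, a freezing injury used as a model of myocardial infarction. The labels give the day 3 population as Ly6c-high/CX3CR1-low and the populations at the other times as Ly6c-low/CX3CR1-high. Day 3 therefore differs from the other groups in population as well as in time, and the parts of population and time cannot be told apart. Libraries were made from total RNA of samples that the labels call biologically independent.

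Chaperones bind unfolded or partly folded proteins and keep them from aggregating. Hsp70 proteins fold clients in cycles of ATP use that J proteins start and that Hsp110 and BAG proteins end by exchanging the nucleotide, Hsp90 matures signalling proteins, and the TRiC ring folds actin and tubulin. The transcription factor HSF1 induces the heat-inducible cytosolic members when proteins unfold, while the unfolded protein response induces the members of the endoplasmic reticulum. In macrophages, chaperone genes are known to respond to fever temperatures, to inflammatory stimuli and to the handling of tissue during cell isolation.

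The values are the deposited linear normalised read counts, called signal here; 1 read was worth a signal of 0.0634 to 0.181, depending on the library. Depth ran from 5828904 to 13199576 reads per library. The libraries of 1 group were not equally alike. Pairs of day 30 libraries correlated across genes at r = 0.99 to 0.9931, against 0.9569 to 0.9764 in pairs of day 0 libraries and 0.933 to 0.9709 in pairs of day 7 libraries; genes are not independent replicates. Among members with a mean signal of at least 10 in a group, the highest library over the lowest had a median of 1.43 at day 0, where that of all genes was 1.28, and of 1.6 at day 7, where that of all genes was 1.56. At day 30 no member reached more than 1.39. The labels call the samples biologically independent, and no more is given on the source of the day 30 libraries. Day 30 against day 7 was also fitted with them averaged as 1 sample. Replicate 1 of day 0 and replicate 2 of day 7 stood apart from their groups, and results that rest on them are given with and without them. Monocyte and macrophage markers, 11 genes, had a summed signal of 9789 to 20249.5 across the libraries.

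Promoters are shown for members whose values the results turn on, since heat-inducible genes and genes of the endoplasmic reticulum are read out through different short motifs. The RefSeq promoter table for GRCm38.p6 held windows, from 250 bases before to 50 bases after the transcript start, for 62 of the 76 symbols. The heat shock element was searched as 2 facing units, GAANNTTC or TTCNNGAA, on both strands; capitals mark the matches, which may overlap each other.

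Hspa1a, chr17:34972107-34972406, minus strand: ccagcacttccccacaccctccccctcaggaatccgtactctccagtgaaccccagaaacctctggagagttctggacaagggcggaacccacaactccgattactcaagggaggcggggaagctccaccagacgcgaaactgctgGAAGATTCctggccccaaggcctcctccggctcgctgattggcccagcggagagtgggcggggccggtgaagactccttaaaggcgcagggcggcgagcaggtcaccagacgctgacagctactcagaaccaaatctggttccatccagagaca
Hspa1b, chr17:34959189-34959488, minus strand: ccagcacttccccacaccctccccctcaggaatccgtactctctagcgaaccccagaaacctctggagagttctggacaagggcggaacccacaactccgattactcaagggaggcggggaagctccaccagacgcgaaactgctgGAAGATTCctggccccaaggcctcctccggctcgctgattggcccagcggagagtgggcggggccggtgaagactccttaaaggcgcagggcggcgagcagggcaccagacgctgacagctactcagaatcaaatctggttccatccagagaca
Hsph1, chr5:149636287-149636586, minus strand: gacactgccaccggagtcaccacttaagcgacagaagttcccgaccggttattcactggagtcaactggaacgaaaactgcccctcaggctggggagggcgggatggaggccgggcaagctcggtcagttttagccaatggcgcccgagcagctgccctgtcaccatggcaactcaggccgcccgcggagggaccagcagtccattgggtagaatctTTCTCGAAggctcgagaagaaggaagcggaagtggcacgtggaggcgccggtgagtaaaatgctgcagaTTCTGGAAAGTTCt
Hspd1, chr1:55087883-55088182, minus strand: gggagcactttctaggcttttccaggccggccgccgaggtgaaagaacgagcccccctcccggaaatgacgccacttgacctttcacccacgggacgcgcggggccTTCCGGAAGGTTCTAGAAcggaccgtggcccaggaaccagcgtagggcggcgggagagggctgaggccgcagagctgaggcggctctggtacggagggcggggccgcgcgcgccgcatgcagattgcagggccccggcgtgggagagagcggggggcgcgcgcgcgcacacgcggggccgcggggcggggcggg

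The windows of Hspa1a and Hspa1b were identical at 296 of 300 positions (98.7%), each with 1 match from 104 to 97 bases before the start. A gene counts as holding a motif if any of its windows does. Of the 2 Hspd1 windows, the 1 shown held 3 overlapping matches and the other 0. Hspe1, whose window overlaps the Hspd1 window shown on the other strand, held 3 as well. Dnaja1 and Dnajb4 each held the element in only 1 of their windows. Of the 8 heat-inducible cytosolic members with a window 7 held the element, all but Dnajb1, against 1 of 7 members of the endoplasmic reticulum (Dnajc10). Over all members 18 of 62 held it (29%), and over the 27025 genes with a window 17%. The longer form of 3 units, GAANNTTC followed by any 2 bases and GAA, stood in 4 members (Hsph1, Hspd1, Hspe1 and Dnajb6) and in 0.662% of genes. The motif that the unfolded protein response reads, the ER stress response element (CCAAT, any 9 bases, then CCACG, on both strands), is shown in capitals in the windows of Hspa5 and Hsp90b1.

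Hspa5, chr2:34771840-34772139, plus strand: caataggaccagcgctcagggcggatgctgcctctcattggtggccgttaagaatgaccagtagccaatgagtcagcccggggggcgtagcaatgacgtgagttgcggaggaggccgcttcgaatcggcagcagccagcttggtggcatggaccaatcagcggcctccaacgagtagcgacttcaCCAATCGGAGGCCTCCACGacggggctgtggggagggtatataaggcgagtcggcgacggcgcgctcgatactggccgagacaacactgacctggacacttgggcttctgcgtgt
Hsp90b1, chr10:86705395-86705694, minus strand: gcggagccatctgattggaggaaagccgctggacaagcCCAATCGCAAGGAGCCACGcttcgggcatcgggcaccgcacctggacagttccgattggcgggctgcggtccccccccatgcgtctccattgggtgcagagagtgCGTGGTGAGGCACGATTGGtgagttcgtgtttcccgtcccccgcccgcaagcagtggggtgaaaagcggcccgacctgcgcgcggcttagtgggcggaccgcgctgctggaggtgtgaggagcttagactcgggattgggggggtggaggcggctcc

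It stood in 3 of the 7 members of the endoplasmic reticulum with a window (Hspa5, Hsp90b1 and Dnajc3), in no other member, and in 0.137% of genes. A match describes the letters of a window and shows no binding.

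Per kilobase of exon, the mean signal over the 12 libraries was led by Hspa8, the constitutive cytosolic Hsp70 (497), ahead of Hsp90ab1, the constitutive Hsp90 (279), Hspa1a, an inducible Hsp70 (238), Hsp90b1 and Hspa5, the Hsp90 and Hsp70 of the endoplasmic reticulum (221 and 209), Hspa1b (127) and Hsp90aa1, the inducible Hsp90 (118). The next member was Bag1 at 58.7. Signal is spread over near-identical copies for several of these genes. Of the 50-base stretches of the Hspa8 transcript 73.2% also occur in another gene, mostly pseudogenes; the shares were 58.5% for Hsp90aa1, 51.6% for Hspb1, 44.8% for Hspd1, 36.1% for Hspe1, 35.8% for Dnajb6 and 18.7% for Dnaja1. Hspa1a (chromosome 17, 34969190 to 34972156) and Hspa1b (chromosome 17, 34956436 to 34959238) share 58.8% and 62.3% of their stretches with each other, and 19% of the exon bases of Hspa1a overlap another annotated gene. Their split is therefore uncertain, and how the counting treated such reads was not tested.

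**Figure D1:**
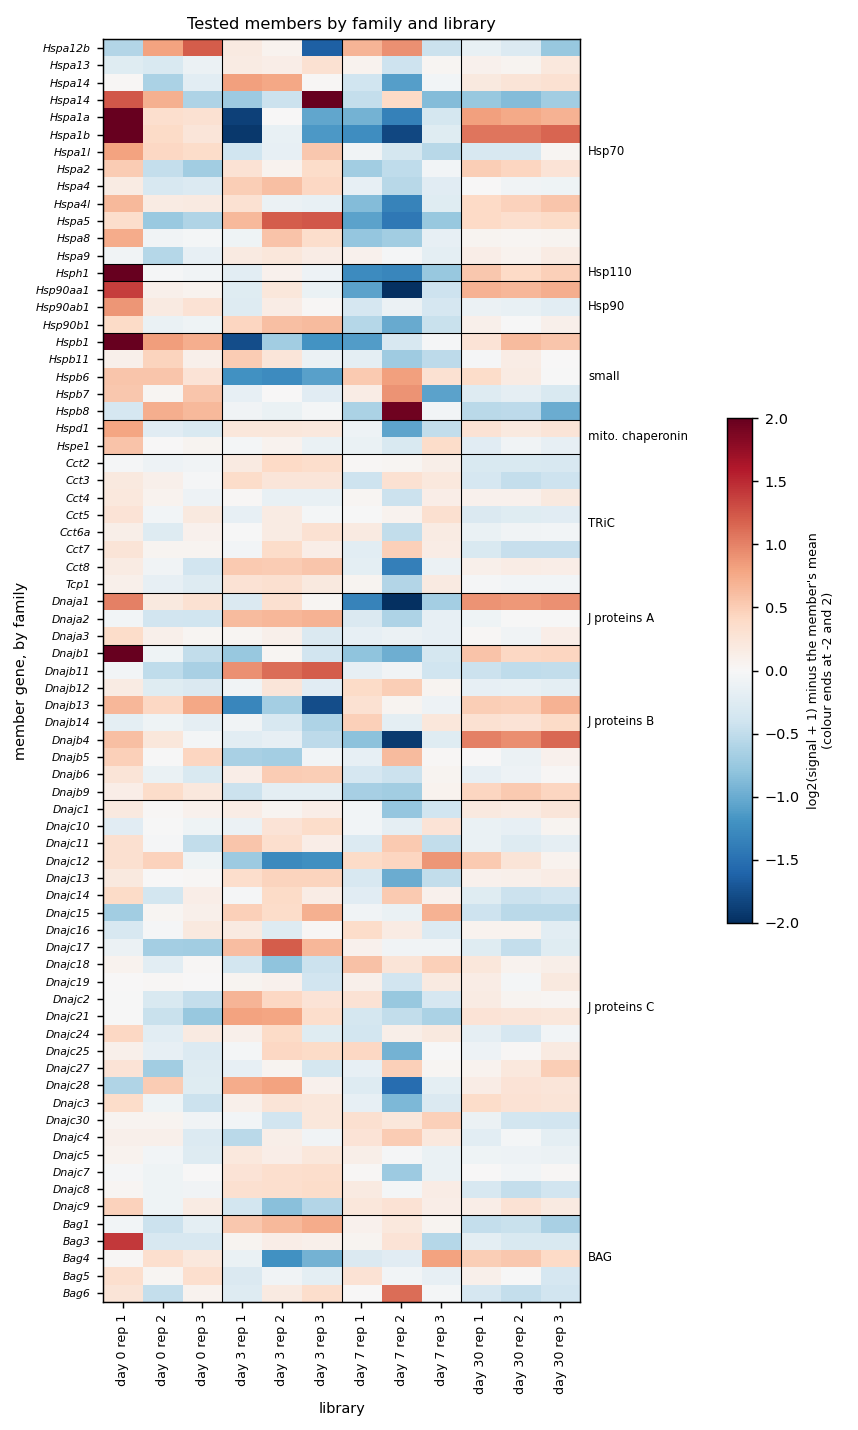
Log2(signal + 1) of the 73 tested members minus each member's mean, with members by family down the page, the 12 libraries across it and colour ends at -2 and 2. The columns of the day 30 libraries look alike, whereas replicate 1 of day 0 is redder than its group in Hspa1a, Hspa1b, Hsph1, Dnajb1 and Bag3.

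The libraries of the uninjured heart differed from each other in 1 set of members above all. Replicate 1 of day 0 had several times the signal of replicates 2 and 3 for the inducible Hsp70 genes, their J protein partner and their nucleotide exchange factors. Dnajb1, the J protein that serves inducible Hsp70, had 476 in replicate 1, against 86.5 and 65 in replicates 2 and 3, a ratio of 6.29 to their mean. Hspa1a had 3081 against 619 and 607 (ratio 5.03), and Hspa1b 1439 against 307 and 276 (ratio 4.94). Hsph1, the Hsp110 exchange factor, had 478 against 98.7 and 95.6 (ratio 4.92), and Bag3, which links Hsp70 to small heat shock proteins and autophagy, 77.2 against 22.5 and 22.6 (ratio 3.42). Replicates 2 and 3 lay close together for each of these 5 genes, and replicate 1 alone was high.

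Among 7344 genes with a mean day 0 signal of at least 10, these 5 members ranked 5, 7, 9, 10 and 20 by that ratio. Members made up 4 of the 10 highest genes, 5 of the 20 highest and 7 of the 50 highest. The others among the 10 highest were the chemokine genes Cxcl1 and Cxcl2, Mamdc2, the inflammatory brake Tnfaip3, Fosb and Gm15542, a predicted gene that shares sequence with Dnaja1. Gm15542 had 114 in replicate 1, against 9.33 and 12.5 in replicates 2 and 3. A ratio over 2 was reached by 9 of 55 members, against 71 of the 7344 genes (0.967%). Hspb1, the small heat shock protein of the cytosol, stood at 2.61, Hsp90aa1 at 2.44, Hspd1 at 2.08 and Hspa5 at 2.03. The median ratio was 1.31 over the 55 members and 1.06 over all genes, and 85.5% of members against 60.7% of genes were above 1.

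The excess differed in size between roles. The 11 heat-inducible cytosolic members (Hspa1a, Hspa1b, Hspa8, Hsph1, Hsp90aa1, Hsp90ab1, Hspb1, Dnaja1, Dnajb1, Dnajb4 and Bag3) ran from 1.43 to 6.29 with a median of 2.61, and all 11 were above 1. The group takes in Hspa8 and Hsp90ab1, the constitutive forms, whose ratios were 1.73 and 1.57. Its counts and sums include them throughout. Members of the endoplasmic reticulum had a median of 1.26 (0.886 to 2.03, 5 of 8 above 1), TRiC subunits 1.15 (1.04 to 1.32, 8 of 8 above 1) and mitochondrial members 1.24 (5 of 7 above 1). The lowest member was Dnajc15, a J protein of the mitochondrial inner membrane, at 0.568, with 12.1 in replicate 1 against 20.9 and 21.9 in replicates 2 and 3. Early response genes, a list of transcripts such as Fos and Egr1 that stimulation induces within minutes, had a median ratio of 2.48, with 21 of 21 above 1. Co-chaperones and genes of the HSF1 programme that are no members had a median of 1.3, close to the 1.31 of all members. Of this list, which includes the regulators Hsf1, Hsf2 and Hsbp1, 15 of 18 were above 1. Replicate 1 also had less signal of mitochondrially encoded genes (196122, against 425206 and 470741) and of markers of other cell types. The summed signal was 28.1 in replicate 1, against 192 and 136 in replicates 2 and 3, for T and NK cells (10 genes), 29.6 against 240.4 and 185 for endothelium (10 genes), and 89 against 259 and 415 for cardiomyocytes (13 genes). It was 42.4 against 118 and 129 for fibroblasts (10 genes), 44 against 146 and 121 for mural cells (8 genes) and 53.2 against 69.9 and 102 for neutrophils (6 genes). Mast cell markers were higher in replicate 1 (38.9, against 23.3 and 22.5), B cell markers were near even (277, against 304 and 300.1), and no marker of these lists was at 0 in all libraries. The part of these differences in the chaperone values was not tested. With 1 library on 1 side the ratios are descriptions with no test.

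**Figure D2:**
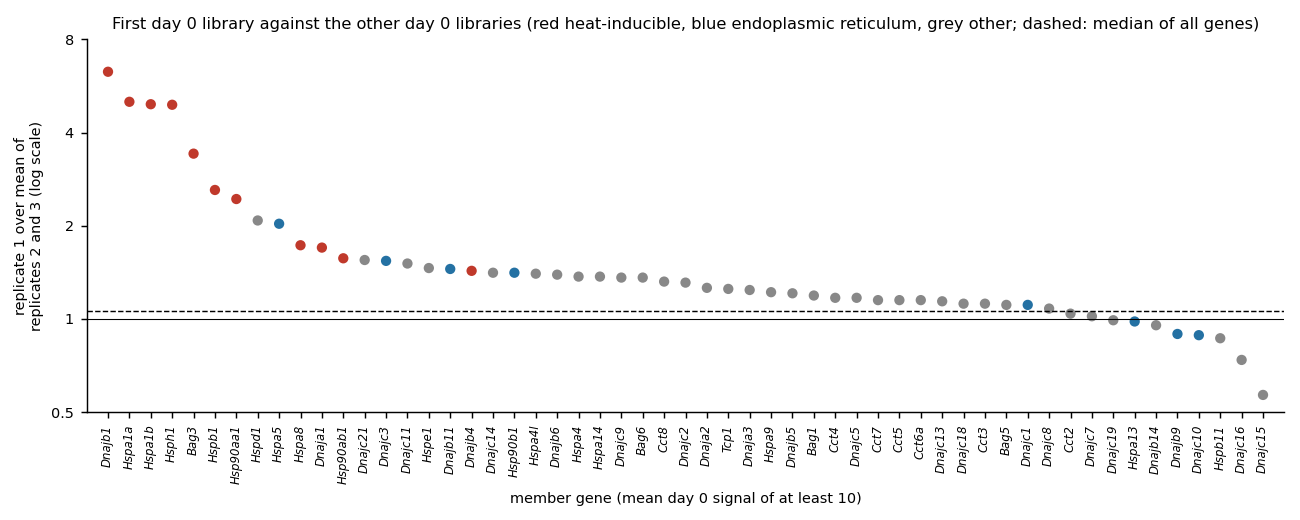
Ratio of the signal in replicate 1 of day 0 to the mean of replicates 2 and 3 (log scale) for the 55 members with a mean day 0 signal of at least 10, in falling order; red points are heat-inducible cytosolic members, blue points members of the endoplasmic reticulum, and the dashed line the median of 7344 genes (1.06). The 5 leftmost points, Dnajb1, Hspa1a, Hspa1b, Hsph1 and Bag3, lie between 3.42 and 6.29, and the rightmost, Dnajc15, at 0.568.

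Changes between the groups were tested with limma on log2(signal + 1) over 12879 genes, with p adjusted by Benjamini and Hochberg over all of them and a threshold of 0.05. At day 3 against day 0, 26 of 73 members passed (35.6%), 14 higher and 12 lower, where 44.2% of all genes passed, 22.1% higher and 22.1% lower. The split moved with the scaling. It was 17 higher and 9 lower with each library centred on its median, and 6 and 17 after quantile normalisation. The shares of all genes under these scalings are not given here, so the shift is not read as particular to the members. At day 7 against day 0, 16 passed (21.9%), none higher and 16 lower, where 21.6% of all genes passed, 11.4% higher and 10.2% lower. At day 30 against day 0 no member passed, where 6.18% of all genes did, 3.45% higher and 2.73% lower. By limma, 12 of 73 members had an unadjusted p under 0.05, where 22.2% of all genes did.

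The later steps were read against the preceding time. With day 7 set against day 3, 30 members passed (41.1%), 7 higher and 23 lower, where 46.8% of all genes passed, 23.3% higher and 23.5% lower. With day 30 set against day 7, 25 passed (34.2%), 18 higher and 7 lower. Of all genes 39.6% passed there, 19.7% higher and 19.9% lower. Median centring gave 23 higher and 3 lower members, and the shares of all genes under it are not given here. Over the 4 groups, 42 members passed (57.5%), where 63.9% of all genes did. The share of members that passed was below that of all genes in these comparisons other than day 7 against day 0, where it was 21.9% against 21.6% and lay on the lower side alone. The median log2 fold change of the members was 0.03, -0.13, -0.02, -0.24 and 0.14 over the 5 comparisons in the order given, and of all genes -0.02, -0.02, -0.01, 0.04 and 0.01. In bulk RNA of a cell population, a smaller share of cells that express a gene and less of its RNA per cell cannot be told apart.

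Of the 11 heat-inducible cytosolic members 9 were called lower at day 7 than at day 0, where 10.2% of all genes were. The inducible Hsp70 genes were lower at day 3 as well. Hspa1a had a signal of 3081, 619 and 607 at day 0, 134, 492 and 237 at day 3, 253, 191 and 384 at day 7 and 865, 828 and 796 at day 30. Every library of days 3 and 7 lay below every library of day 0, and the day 30 libraries lay above the lower pair of day 0. The log2 fold change was -2.07 ± 0.52 (SE) at day 3 against day 0 (limma, adjusted p = 0.00475). Without replicate 1 of day 0 it was -1.29 (limma, adjusted p = 0.0139).

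Hspa1a changed at day 7 against day 0 by -1.99 ± 0.52 (limma, adjusted p = 0.0147). The size of this fall rests on the libraries that stood apart: it was -1.21 without replicate 1 of day 0 (limma, adjusted p = 0.0424), -1.75 without replicate 2 of day 7 (limma, adjusted p = 0.0573) and -0.97 without both (limma, adjusted p = 0.0954). Hspa1b, its near-identical neighbour, had 1439, 307 and 276 at day 0, 60.6, 212 and 105 at day 3, 98.1, 65.8 and 197 at day 7 and 491, 494 and 526 at day 30. Within each of days 0, 3 and 7 its libraries stood in the same order as those of Hspa1a. The log2 fold change of Hspa1b was -2.16 ± 0.54 at day 3 and -2.18 ± 0.54 at day 7, each against day 0 (limma, adjusted p = 0.00459 and 0.0108). The fall at day 7 was -1.06 without both libraries (limma, adjusted p = 0.0811). At day 30 against day 7 both genes were higher, Hspa1b by 2.21 ± 0.54 and Hspa1a by 1.64 ± 0.52 (limma, adjusted p = 0.00554 and 0.0219); the call of Hspa1a was lost without replicate 2 of day 7 (1.41; limma, adjusted p = 0.0838). The signal of Hspa1a was 1.51 to 2.9 times that of Hspa1b in the 12 libraries, lowest in the day 30 libraries (1.51 to 1.76).

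Dnaja1, a cytosolic J protein of Hsp70 (chromosome 4, 40722150 to 40737149), had 684, 388 and 416 at day 0, 277, 421 and 349 at day 3, 133, 70.9 and 212 at day 7 and 634, 615 and 636 at day 30. The day 7 libraries lay below all 9 others. It fell by 1.92 on the log2 scale at day 7 against day 0 (SE 0.31; limma, adjusted p = 0.000453) and by 1.44 at day 7 against day 3 (SE 0.31; limma, adjusted p = 0.00136), and rose by 2.31 at day 30 against day 7 (SE 0.31; limma, adjusted p = 8.82e-05). These 3 calls held under all 24 alternatives. Hsp90aa1 (chromosome 12, 110690605 to 110702728) had 1032, 426 and 419 at day 0, 335, 464 and 362 at day 3, 189.5, 97.3 and 299 at day 7 and 640.4, 631 and 659 at day 30. It was again lowest in the 3 day 7 libraries, at -1.68 ± 0.35 against day 0 (limma, adjusted p = 0.0037), and the day 30 libraries lay 1.86 ± 0.35 above day 7 (limma, adjusted p = 0.00109). Its fall at day 7 against day 3 (-1.11 ± 0.35; limma, adjusted p = 0.018) did not pass without replicate 2 of day 7 (-0.68; limma, adjusted p = 0.0888).

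Hsph1 (chromosome 5, 149614287 to 149636376) had 478, 98.7 and 95.6 at day 0, 87, 107 and 94.2 at day 3, 41.5, 40.1 and 59 at day 7 and 147, 133 and 141 at day 30. It fell at day 7 against day 0 by 1.82 (SE 0.42; limma, adjusted p = 0.00699) and without replicate 1 of day 0 by 1.06 (limma, adjusted p = 0.00101), a smaller change with a smaller p. Day 7 against day 3 did not pass with all libraries (-1.04, limma, adjusted p = 0.0542) and passed without replicate 1 of day 0 (limma, adjusted p = 0.000107). Dnajb1 (chromosome 8, 83608193 to 83612653) had 476, 86.5 and 65 at day 0, 53.6, 94.4 and 70 at day 3, 52.1, 45.9 and 71.3 at day 7 and 136, 122 and 124 at day 30. The day 30 libraries lay above every library other than replicate 1 of day 0. No comparison of Dnajb1 passed with all libraries, and day 30 against day 7 (1.18 ± 0.50; limma, adjusted p = 0.0699) passed without replicate 1 of day 0 (limma, adjusted p = 0.000664).

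Bag3 (chromosome 7, 128523616 to 128546981) passed no comparison, and beside the 77.2 of replicate 1 of day 0 its other 11 values lay between 18.8 and 34.6. Hspb1 (chromosome 5, 135887919 to 135889563) had 31.9, 12.7 and 11.8 at day 0, 1.25, 3.78 and 2.38 at day 3, 2.57, 5.2 and 6.57 at day 7 and 8.34, 11 and 10.3 at day 30. It was lowest at day 3, at -2.44 ± 0.37 against day 0 (limma, adjusted p = 8.1e-05), the largest change of a member on the log2(signal + 1) scale in that comparison, and at -1.70 ± 0.37 at day 7 against day 0 (limma, adjusted p = 0.00512). Hspa8 (chromosome 9, 40800984 to 40810087), present in all cells, ranged from 1205 to 3422 over the libraries. Its fall at day 7 against day 0 (-0.75 ± 0.24; limma, adjusted p = 0.0384) did not pass without replicate 1 of day 0 (-0.49; limma, adjusted p = 0.143). Dnajb4, a J protein of the cytosol, rose most of the group at day 30 against day 7 after Dnaja1 and Hspa1b, by 2.02 ± 0.30 (limma, adjusted p = 0.000216), with 85.7, 80.4 and 93.6 at day 30 and 23.2, 10.4 and 35.2 at day 7.

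Counted over the 11 heat-inducible members, 4 were lower and none higher at day 3 against day 0 (Hspb1, Hspa1a, Hspa1b and Hsp90ab1). Of all genes, 22.1% were lower there. At day 7 against day 0, 9 of the 11 were lower and none higher, all but Dnajb1 and Bag3, where 10.2% of all genes were lower. Day 7 against day 3 gave 3 lower members (Hspa8, Hsp90aa1 and Dnaja1), where 23.5% of all genes were lower. Day 30 against day 7 gave 6 higher members (Dnaja1, Hspa1b, Dnajb4, Hsp90aa1, Hspa1a and Hsph1), where 19.7% of all genes were higher. The median log2 fold change of the 11 was -0.57, -1.68, -0.35 and 1.58 in that order. Without replicate 1 of day 0 the median was -0.22 at day 3 and -1.09 at day 7, each against day 0. There 3 and 7 members were lower, where 2717 and 1022 of 12881 genes were. Without replicate 2 of day 7, Hspa8 and Hspa1a lost their calls at day 7 against day 0 (limma, adjusted p = 0.0911 and 0.0573). Hspa1b passed narrowly (limma, adjusted p = 0.0498), where 957 of 12821 genes were lower. Hsp90ab1 (chromosome 17, 45567775 to 45573271) fell by 0.48 at day 3 against day 0 (SE 0.19; limma, adjusted p = 0.0478), a call lost without replicate 1 of day 0 (limma, adjusted p = 0.221). The summed signal of the group includes that of the constitutive Hspa8 and Hsp90ab1. It was 12289, 4883 and 4957 at day 0, 3631, 5819 and 4731 at day 3, 2669, 2581 and 3754 at day 7 and 5920.3, 5777 and 5835 at day 30. Early response genes had a sum of 8847, 3065 and 3549 at day 0, 6588, 9187 and 8551 at day 3, 3064, 2429 and 3078 at day 7 and 10109.7, 10042 and 9938 at day 30. Both sums were high in replicate 1 of day 0. Both were low in all day 7 libraries, but the early response sum was near as low in replicates 2 and 3 of day 0 (3065 and 3549). At day 3 the early response sum was 6588 to 9187 and the heat-inducible sum 3631 to 5819. At day 30 the early response sum was highest (9938 to 10109.7), whereas the heat-inducible sum (5777 to 5920.3) lay below replicate 1 of day 0. Their relation was not tested.

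**Figure D3:**
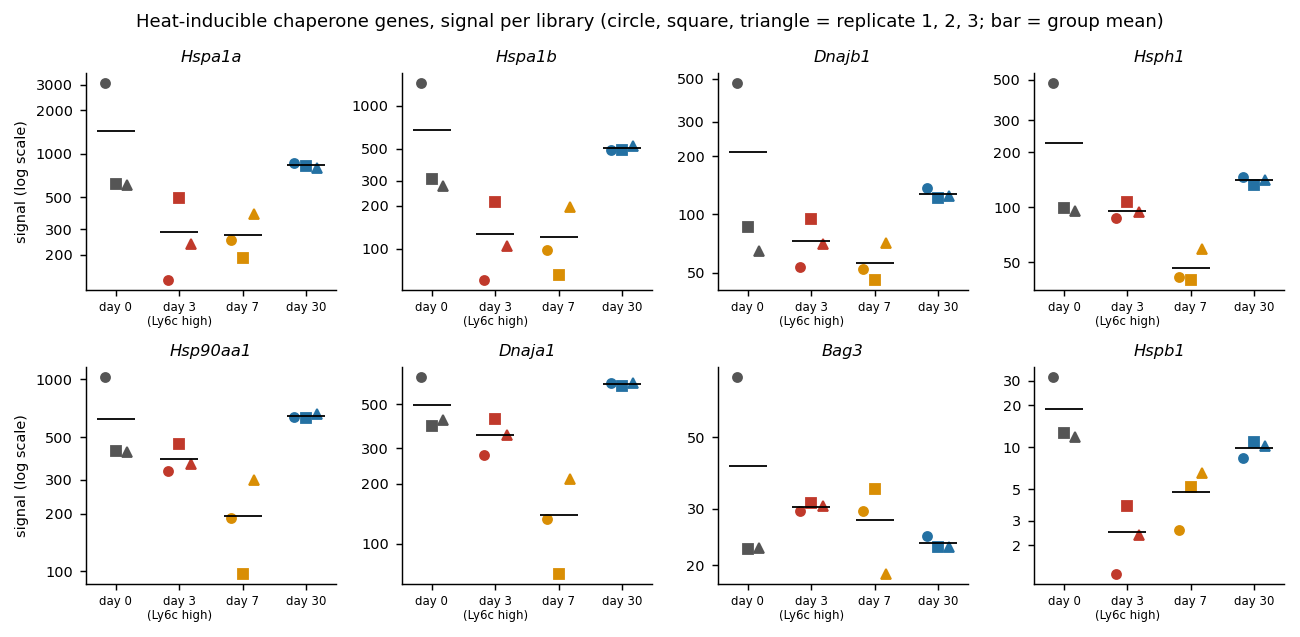
Signal of 8 heat-inducible cytosolic members in each library (log scale), by day along the x axis, with circles, squares and triangles for replicates 1, 2 and 3 and a bar for the group mean. Replicate 1 of day 0 is the highest library for all 8, from 31.9 for Hspb1 to 3081 for Hspa1a, and Dnaja1 and Hsp90aa1 are lowest in the 3 day 7 libraries.

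In the endoplasmic reticulum the main chaperones Hspa5 and Hsp90b1 were highest at day 3 and lowest at day 7. Hspa5, the Hsp70 called BiP that holds nascent secretory proteins (chromosome 2, 34771970 to 34777547), had 958, 449 and 492 at day 0, 1181, 1738 and 1768 at day 3, 358, 279 and 443 at day 7 and 993, 949 and 979.5 at day 30. All 3 day 3 libraries lay above the 9 others, and the 3 day 7 libraries lay below them. It rose by 1.36 ± 0.26 at day 3 against day 0 (limma, adjusted p = 0.000514), fell by 2.12 at day 7 against day 3 (SE 0.26; limma, adjusted p = 1.22e-05) and rose by 1.46 ± 0.26 at day 30 against day 7 (limma, adjusted p = 0.00067). Each of these held under all 24 alternatives. The fall at day 7 against day 0 was smaller (-0.75 ± 0.26; limma, adjusted p = 0.0489) and did not pass without replicate 1 of day 0 (-0.41; limma, adjusted p = 0.196).

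Hsp90b1, the Hsp90 of the endoplasmic reticulum also called GRP94 (chromosome 10, 86690209 to 86705509), had 1104, 772 and 799 at day 0, 1138, 1283 and 1314 at day 3, 568, 418 and 622 at day 7 and 909, 844 and 903 at day 30. Its day 3 libraries lay above and its day 7 libraries below all others, as for Hspa5. Hsp90b1 fell by 1.23 at day 7 against day 3 (SE 0.18; limma, adjusted p = 6.93e-05); the rise at day 3 against day 0 was 0.50 ± 0.18 (limma, adjusted p = 0.0359) and was lost under 9 of 24 alternatives. Dnajb11, a J protein that delivers clients to BiP (chromosome 16, 22857845 to 22879634), had 93.1, 67.6 and 61 at day 0, 183, 211 and 225 at day 3, 86.3, 92.1 and 73.3 at day 7 and 71.7, 67.3 and 68.4 at day 30. Day 3 alone stood out, 1.49 ± 0.16 above day 0 (limma, adjusted p = 2.73e-06), the largest rise of a called member on the log2(signal + 1) scale, while by the ratio of mean signals Dnajc17 rose more (3.33, against 2.79 for Dnajb11). Dnajb11 stood at day 7 at -1.29 ± 0.16 against day 3 (limma, adjusted p = 1.74e-05).

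The other J proteins of this compartment were not called higher at day 3. Dnajb9, an inducible partner of BiP in degradation, had 35, 41.4 and 41.3 at day 3 and 52.1, 61.4 and 55.2 at day 0, a fall of 0.51 (SE 0.19; limma, adjusted p = 0.0367). Dnajc3, known as p58IPK and an inhibitor of the kinase PERK, had a log2 fold change of 0.24 ± 0.20 at day 3 against day 0 (limma, adjusted p = 0.352). It fell by 0.64 at day 7 against day 3 (SE 0.20; limma, adjusted p = 0.0176), a call lost without replicate 2 of day 7 (limma, adjusted p = 0.065), and rose by 0.76 ± 0.20 at day 30 against day 7 (limma, adjusted p = 0.00929). Of the 8 members in this compartment, 3 were higher and 1 lower at day 3 against day 0. Of all genes, 22.1% were higher there and 22.1% lower. At day 7 against day 0, 4 members were lower (Hspa5, Hsp90b1, Dnajb9 and Dnajc1), where 10.2% of all genes were. Without replicate 1 of day 0 those 4 became 2 (Hsp90b1 and Dnajb9), and without replicate 2 of day 7 Hsp90b1 alone passed. Against day 3, 5 were lower at day 7 (Hspa5, Dnajb11, Hsp90b1, Dnajc3 and Dnajc1), where 23.5% of all genes were. At day 30 against day 7, 5 were higher (Hspa5, Dnajb9, Dnajc3, Hsp90b1 and Dnajc1), where 19.7% of all genes were. Hspa13 and Dnajc10, a reductase with a J domain, passed no comparison; Dnajc10 had 42.4, 56.1 and 59.7 at day 3, against 39.6, 46.1 and 43.3 at day 0 (0.28 ± 0.17; limma, adjusted p = 0.195). The summed signal was 2744 to 3584 at day 3, against 1538 to 2429 at day 0, and 945 to 1370.1 at day 7.

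**Figure D4:**
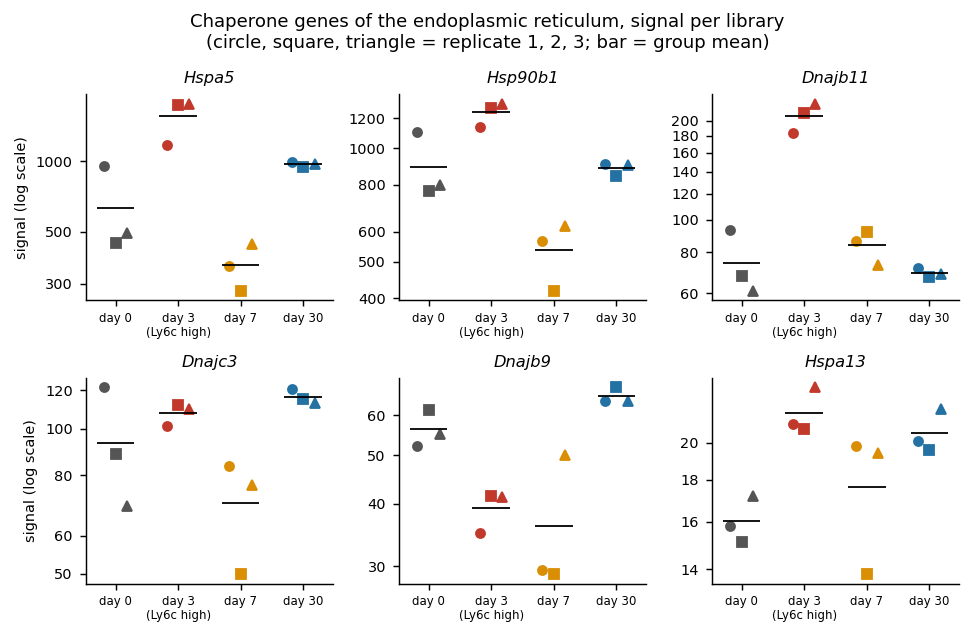
Signal of 6 members of the endoplasmic reticulum in each library (log scale), by day along the x axis, with circles, squares and triangles for replicates 1, 2 and 3 and a bar for the group mean. Hspa5, Hsp90b1 and Dnajb11 are highest at day 3, whereas Dnajb9 is lower in the 3 day 3 libraries (35 to 41.4) than in the 3 day 0 libraries (52.1 to 61.4).

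A list of genes for folding, degradation and signalling in the unfolded protein response held 26 tested genes that are no members. It includes regulators such as Atf4 and Xbp1. Of the 26 genes, 12 were higher and 2 lower at day 3 against day 0 (median 0.38). At day 7 against day 3, 2 were higher and 14 lower (median -0.54). Of all genes, 22.1% were higher and 22.1% lower in the first comparison, and 23.3% and 23.5% in the second. Ero1l, the oxidase that drives disulphide formation, rose by 1.75 ± 0.17 at day 3 against day 0 (limma, adjusted p = 8.26e-07), Creld2 by 1.53 ± 0.21 and the exchange factor Hyou1 by 1.26 ± 0.27 (limma, adjusted p = 2.75e-05 and 0.00125). Creld2 had 35.8, 40 and 62.9 at day 3, against 12.7, 16.8 and 15.4 at day 0. Herpud1, a degradation factor also induced by the unfolded protein response, went the other way, with 12.1, 20.8 and 21.4 at day 3 and 54.4, 55.4 and 46.9 at day 0 (-1.52 ± 0.19; limma, adjusted p = 1.25e-05). In day 7 against day 0, 3 of these genes were higher and 2 lower, at day 30 against day 0, 1 and 3, and at day 30 against day 7, 4 and 7. Without replicate 1 of day 0 the first pair was 2 and 1 and the second 1 and 1. Without replicate 2 of day 7 they were 1 and 3, and 3 and 4. With all libraries, 11.4% of all genes were higher and 10.2% lower at day 7 against day 0. At day 30 the shares were 3.45% and 2.73% against day 0, and 19.7% and 19.9% against day 7.

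TRiC subunits varied less than these groups. TRiC, whose 8 subunits are needed in equal number, had a summed signal of 443 to 623, 1.41 times from lowest to highest library. The heat-inducible sum covered 4.76 times and the sum of the endoplasmic reticulum 3.79 times. Replicate 1 of day 0 set the top of the heat-inducible sum (12289), and the highest other library had 5920.3. Among the 8 TRiC subunits, Cct2 alone passed at day 3 against day 0 with all libraries, where 44.2% of all genes did. Without replicate 1 of day 0, 2 subunits passed, and without replicate 2 of day 7, 3 passed. Cct2 had 94.8, 109.9 and 107 at day 3, against 81.8, 77.8 and 79.9 at day 0 (0.37 ± 0.12, limma, adjusted p = 0.0208). Cct8 fell at day 7 against day 3 by 1.09 (SE 0.25; limma, adjusted p = 0.00258) and rose at day 30 against day 7 by 0.69 ± 0.25 (limma, adjusted p = 0.0399), with 54.2, 23.7 and 57.4 at day 7. The low value was that of replicate 2; without it the fall was 0.69 and still passed, and the rise did not (limma, adjusted p = 0.00141 and 0.133). Cct7 and Cct2 were lower at day 30 against day 7, at -0.54 ± 0.18 and -0.37 ± 0.12 (limma, adjusted p = 0.0257 and 0.0271). Tcp1, the subunit that gave the ring its name, lay between 70.7 and 134 and passed no comparison.

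In mitochondria, Hspd1, the chaperonin Hsp60 (chromosome 1, 55077835 to 55088243), had 195, 96.6 and 91.5 at day 0, 132, 132 and 130.4 at day 3, 105, 54.1 and 80.3 at day 7 and 139, 129 and 135 at day 30. Its day 7 libraries lay below those of days 3 and 30, by 0.77 (SE 0.26; limma, adjusted p = 0.0229) and 0.80 (SE 0.26; limma, adjusted p = 0.023), and neither passed without replicate 2 of day 7 (limma, adjusted p = 0.0979 and 0.102). Its lid Hspe1, which is transcribed in the other direction from the same region, lay between 56.5 and 104 and passed no comparison. Hspa9, the Hsp70 of the mitochondrial import motor, had 73.1, 75.7 and 71.2 at day 3, against 61.5, 42.9 and 57.6 at day 0 (0.45 ± 0.15; limma, adjusted p = 0.0237). Dnajc15 rose by 0.70 ± 0.24 at day 3 against day 0 (limma, adjusted p = 0.0282), but not without replicate 1 of day 0 (0.45; limma, adjusted p = 0.137). Of the 8 mitochondrial members, 2 were higher at day 3 against day 0 (Dnajc15 and Hspa9), and none passed at day 7 against day 0. Hspd1 alone was lower at day 7 against day 3, and 1 was higher and 2 lower at day 30 against day 7. The shares of all genes were 22.1% higher, 21.6% either way, 23.5% lower, and 19.7% higher and 19.9% lower in these comparisons.

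Of 15 tested genes for prefoldin and mitochondrial protein quality control that are no members, 2 were higher and 2 lower at day 3 against day 0, and 3 were higher and 3 lower at day 7 against day 3. At day 30 against day 7, 1 was higher and 2 lower. Without replicate 2 of day 7 these counts were 4 and 2, 2 and 1, and none and 1. With all libraries, 22.1% of all genes were higher and 22.1% lower at day 3 against day 0. The shares were 23.3% and 23.5% at day 7 against day 3, and 19.7% and 19.9% at day 30 against day 7. Pfdn5, a subunit of prefoldin, which hands clients to TRiC, had 73.6, 91.3 and 88.7 at day 3 and 151, 164 and 152 at day 0 (-0.88 ± 0.14; limma, adjusted p = 0.000133). It was also the 1 gene of the list that passed at day 30 against day 0, with 97.2, 90 and 93.9 at day 30 (-0.73 ± 0.14; limma, adjusted p = 0.00813). Afg3l2, a protease subunit of the inner membrane, rose by 0.92 ± 0.22 at day 3 against day 0 (limma, adjusted p = 0.003).

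Of the 36 tested J proteins, 7 were higher and 6 lower at day 3 against day 0, where 22.1% of all genes were higher and 22.1% lower. There were 5 lower at day 7 against day 0 (10.2% of all genes), 5 higher and 12 lower at day 7 against day 3 (23.3% and 23.5% of all genes), and 7 higher and 3 lower at day 30 against day 7 (19.7% and 19.9% of all genes). Without replicate 2 of day 7 the counts were 11 higher and 7 lower at day 3 against day 0, and 2 higher and 3 lower at day 7 against day 0. Dnaja2, a general cytosolic J protein, had 119, 122 and 124 at day 3, against 73.3, 58.6 and 57.8 at day 0. The groups were well apart (0.94 ± 0.15; limma, adjusted p = 9.45e-05), and the gene returned at day 7 to 62.5, 49.6 and 68.1 (-1.02 ± 0.15 against day 3; limma, adjusted p = 5.9e-05). Dnajc21, a ribosome assembly factor, rose by 1.05 ± 0.20 and Dnajc17, a J protein of the nucleus, by 1.33 ± 0.25 at day 3 against day 0 (limma, adjusted p = 0.000649 and 0.000556). Dnajc17 was low in every library, with 5.08, 8.15 and 5.29 at day 3, against 2.64, 1.47 and 1.45 at day 0.

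Other J proteins were lowest at day 3. Dnajc9, which also acts as a histone chaperone, had 12, 8.38 and 10.2 at day 3, against 22.2, 14.8 and 17.9 at day 0 (-0.78 ± 0.19; limma, adjusted p = 0.00313), and rose by 0.82 ± 0.19 at day 7 against day 3 (limma, adjusted p = 0.00232). Dnajc18 rose by 0.98 ± 0.18 and Dnajc12, known as a partner of amino acid hydroxylases, by 1.64 ± 0.27 in that comparison (limma, adjusted p = 0.000567 and 0.00017). Dnajc12 had 12, 4 and 4 reads at day 3 (signal 1.15, 0.472 and 0.529), against a signal of 3.63, 3.81 and 5.55 at day 7. Dnajb13, known from sperm flagella and cilia, had 0.575, 1.42 and 0.132 at day 3, against 5.15, 4.19 and 5.61 at day 0 (-1.87 ± 0.28; limma, adjusted p = 5.95e-05); 11.2% of its exon bases overlap Ucp2, and without known strand use the reads of both genes cannot be told apart. Dnajc28 fell at day 7 against day 3 by 1.21 (SE 0.35; limma, adjusted p = 0.0104).

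Hspa4, a cytosolic relative of Hsp110, had 188, 204 and 179 at day 3, against 149.5, 107 and 111 at day 0 (0.65 ± 0.15; limma, adjusted p = 0.00318). Its close relative Hspa4l instead fell at day 7, with 22.9, 16.4 and 35.8 at day 7, against 67.7, 48.1 and 48.5 at day 0 (-1.15 ± 0.23; limma, adjusted p = 0.00284), and rose by 1.29 ± 0.23 at day 30 against day 7 (limma, adjusted p = 0.000779). Among 13 tested Hsp70 rows, 4 were higher and 2 lower at day 3 against day 0, 5 were lower at day 7 against day 0, 5 were lower at day 7 against day 3 and 6 were higher at day 30 against day 7. The 5 lower at day 7 against day 0 became 3 without replicate 1 of day 0 and 2 without replicate 2 of day 7. The 6 higher at day 30 against day 7 became 3 without replicate 2 of day 7. Of all genes, with all libraries, 22.1% were higher and 22.1% lower at day 3 against day 0. At day 7, 10.2% were lower against day 0 and 23.5% against day 3, and at day 30, 19.7% were higher against day 7. The second identifier of Hspa14 had 14.3 in replicate 3 of day 3 and at most 3.3 in the other libraries.

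Among the small heat shock proteins, Hspb11, also a subunit of the transport machinery of cilia, had 10.9, 7.28 and 8.47 at day 7, against 13.5, 17.5 and 13.6 at day 0 (-0.69 ± 0.21; limma, adjusted p = 0.0295), a call lost without replicate 2 of day 7 (limma, adjusted p = 0.0786). It was also lower at day 7 than at day 3, where it had 18.4, 15.1 and 11.5 (-0.69 ± 0.21; limma, adjusted p = 0.014). Hspb6, Hspb7 and Hspb8 had low signal. Hspb6, a partner of contractile muscle proteins, had 1.25, 1.18 and 1.46 at day 3, against 6.6, 6.6 and 5.25 at day 0 (-1.64 ± 0.23; limma, adjusted p = 2.73e-05), and 6.51, 8.21 and 5.4 at day 7 (1.73 ± 0.23 against day 3; limma, adjusted p = 2.23e-05). The day 3 libraries lay below all others. Cardiomyocyte markers moved in the same direction at day 3: all 12 tested were lower at day 3 against day 0, and the summed signal of the 13 in the table was 89 to 415 at day 0, 12 to 18.8 at day 3, 88.7 to 221 at day 7 and 26.7 to 27.1 at day 30, with no marker at 0 in all libraries. At day 30 against day 0, 11 of the 12 were lower, whereas Hspb6 had 5.69, 4.81 and 4.18 at day 30 (-0.28 ± 0.23; limma, adjusted p = 0.491). Their part in the Hspb6 values was not tested. Hspb7, the other muscle member, reached at most 3.47 and passed no comparison, and Hspb8, which works with Bag3, had 7.63 in replicate 2 of day 7 and at most 2.73 elsewhere. Fibroblast markers were also highest in that library, at a sum of 2246, against 797 and 573 in the other day 7 libraries; their part was not tested.

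Among the BAG genes, Bag1, a nucleotide exchange factor that links Hsp70 to the proteasome (chromosome 4, 40936398 to 40948294), had 110, 119 and 126 at day 3, against 72.6, 55.9 and 65.7 at day 0 (0.87 ± 0.14; limma, adjusted p = 0.000117). It then fell by 0.53 at day 7 against day 3 (SE 0.14; limma, adjusted p = 0.00564) and by 0.64 at day 30 against day 7 (SE 0.14; limma, adjusted p = 0.00245), to 53.6, 54.8 and 47.5. Bag4 moved the opposite way, lower at day 3 against day 0 (-0.95 ± 0.31; limma, adjusted p = 0.0203). Bag6, which guards membrane proteins before insertion, had 38, 34.1 and 36.6 at day 30, against 48.3, 105 and 46.6 at day 7, and its call (-0.76 ± 0.27; limma, adjusted p = 0.0374) did not pass without replicate 2 of day 7 (limma, adjusted p = 0.171). Also lower at day 30 against day 7 were Dnajc15 (-0.66 ± 0.24) and Dnajc30, which overlaps Bud23 over 26.2% of its exon bases (-0.63 ± 0.21; limma, adjusted p = 0.0427 and 0.0257).

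A list of co-chaperones and genes of the HSF1 programme that are no members did not move as 1 group. It includes the regulators Hsf1, Hsf2 and Hsbp1. Of 23 tested, 3 were higher and 5 lower at day 3 against day 0, 1 was higher and 7 lower at day 7 against day 0, 4 were lower at day 30 against day 0, 5 were higher and 5 lower at day 7 against day 3, and 5 were higher and 7 lower at day 30 against day 7. Without replicate 1 of day 0 the list gave none higher and 2 lower (Fkbp5 and Ptges3) at day 7 against day 0, and 1 higher and 2 lower at day 30 against day 0. Without replicate 2 of day 7 it gave 6 higher and 5 lower at day 3 against day 0, and 1 higher and 6 lower at day 30 against day 0. With all libraries, 22.1% of all genes were higher and 22.1% lower at day 3 against day 0. The shares against day 0 were 11.4% and 10.2% at day 7, and 3.45% and 2.73% at day 30. They were 23.3% and 23.5% at day 7 against day 3, and 19.7% and 19.9% at day 30 against day 7. The Hsp90 immunophilins Fkbp4 and Fkbp5 were lower at day 3, day 7 and day 30 than at day 0. Fkbp4 had 87, 62.9 and 67.9 at day 0, 23.9, 29.2 and 30.7 at day 3, 37.4, 58.1 and 37 at day 7 and 28.3, 30.5 and 32.5 at day 30. Its log2 fold change was -1.34 ± 0.19 at day 3 and -1.22 ± 0.19 at day 30, each against day 0 (limma, adjusted p = 3.68e-05 and 0.00181), and -0.72 ± 0.19 at day 7 (limma, adjusted p = 0.0147; 0.0607 without replicate 1 of day 0). Fkbp5, also a glucocorticoid target, stood at -1.21 ± 0.28 at day 3, -1.81 ± 0.28 at day 7 and -1.32 ± 0.28 at day 30 against day 0 (limma, adjusted p = 0.00247, 0.000353 and 0.0112). Ahsa1, which activates the Hsp90 ATPase, rose by 1.01 ± 0.18 at day 3 against day 0 (limma, adjusted p = 0.000307).

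Serpinh1, the collagen chaperone, fell by 2.88 at day 30 against day 7 (SE 0.52; limma, adjusted p = 0.000813), with 3.2, 3.25 and 1.52 at day 30, against 16.4, 77.7 and 12.1 at day 7. The highest value was that of replicate 2 of day 7, which had the highest fibroblast sum; that part was not tested. Of the 23 tested early response genes, 12 were higher and 4 lower at day 3 against day 0, 1 was higher and 7 lower at day 7 against day 0, 10 were higher at day 30 against day 0, 1 was higher and 15 lower at day 7 against day 3, and 22 were higher at day 30 against day 7. The 10 higher at day 30 against day 0 became 20 without replicate 1 of day 0 and 15 without replicate 2 of day 7. At day 7 against day 0 the list gave 3 higher and 7 lower without replicate 1 of day 0, and none higher and 6 lower without replicate 2 of day 7. Of all genes, with all libraries, 22.1% were higher and 22.1% lower at day 3 against day 0. Against day 0 the shares were 11.4% and 10.2% at day 7, and 3.45% and 2.73% at day 30. At day 7 against day 3 they were 23.3% and 23.5%, and at day 30 against day 7 they were 19.7% and 19.9%. The nuclear receptor gene Nr4a1 had 206, 199.6 and 196 at day 30, against 105, 25.1 and 19.6 at day 0 (2.39 ± 0.43; limma, adjusted p = 0.00482).

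**Figure D5:**
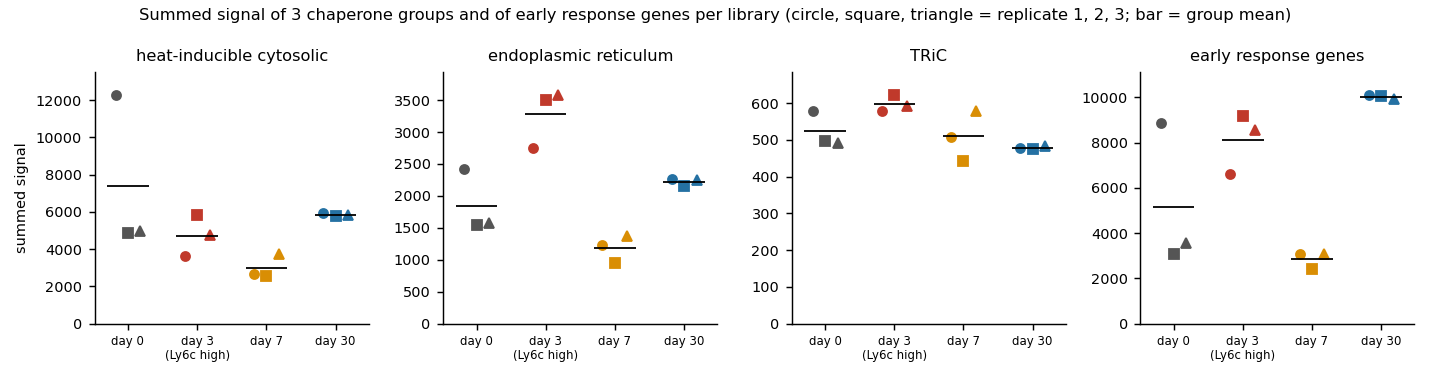
Summed signal of the heat-inducible cytosolic members, the members of the endoplasmic reticulum, the TRiC subunits and the early response genes in each library, on linear axes from 0, with circles, squares and triangles for replicates 1, 2 and 3 and a bar for the group mean. At day 3 the members of the endoplasmic reticulum (2744 to 3584) lie above all other libraries, while the TRiC sum stays within 443 to 623 throughout.

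Day 30 against day 0 gave no member in limma, none in edgeR's quasi-likelihood test of the recovered reads, and 2 in DESeq2. An unadjusted p under 0.05 was reached by 12 of 73 members in limma, where 22.2% of all genes reached it. In edgeR it was reached by 17 members, where 22.6% of all genes reached it, and in DESeq2 by 17, where 23.5% did. A p that misses the threshold does not show that the groups are alike. Hspa1a averaged 829.7 ± 34.8 at day 30 and 1436 ± 1425 at day 0 (SD, n = 3 each). Without replicate 1 of day 0, 3 members passed, where 7.42% of all genes did, 3.96% higher and 3.46% lower, and all 3 were higher: Hspa5 (1.05), Hspa2 (0.98) and Dnajc21 (0.85; limma, adjusted p = 0.00784, 0.0325 and 0.0204). Without replicate 2 of day 7, whose spread enters the common estimate, 8 passed, 3 higher and 5 lower, where 15.6% of all genes did, 8.45% higher and 7.11% lower.

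Without both of these libraries 18 members passed at day 30 against day 0, where 19.5% of all genes did. Of these, 15 were higher, where 10.9% of all genes were higher and 8.64% lower. They were Hsph1, Dnajb1, Dnajb4, Dnaja1, Dnaja2, Dnajb14, Dnajc3, Dnajc21, Hsp90aa1, Hspa2, Hspa5, Hspa9, Hspa14 (named Gm45902 in GENCODE M21), Hspd1 and Cct8. The 3 lower members were Hsp90ab1, Cct7 and Hspb8. Replicate 1 of day 0 is the library that stood high in members such as Hsph1 and Dnajb1. Leaving it out lowers their day 0 mean and so tilts counts against day 0 toward higher members. The size of that part was not tested. Dnajb1 had 136, 122 and 124 at day 30, against 86.5 and 65 in replicates 2 and 3 of day 0, and Hsph1 147, 133 and 141 against 98.7 and 95.6. The omission of both libraries gave 37 members at day 3 against day 0, 25 higher and 12 lower. There 53.6% of all genes passed, 27.3% higher and 26.3% lower. It gave 13 members at day 7 against day 0, 2 higher and 11 lower, where 18% of all genes passed, 9.62% higher and 8.38% lower. With the day 30 libraries averaged as 1 sample, far fewer members passed at day 30 against day 7. A group of 1 sample has no spread of its own. The share of all genes under that setting is not given here, so the drop is not read as particular to the members.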

How the data were processed

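RNA was sequenced in 12 libraries, 3 in each of 4 groups. The deposited signal is a linear normalised read count per gene; the submitters' processing notes name cutadapt 1.3, RSEM 1.2.20, edgeR 3.14.0 and GRCm38, without their roles. The deposited table also holds log2 values of the same signal, with 0 for every signal under 1. They matched within 1e-09 in 173520 of 173520 cells and were not used. Every signal was a whole multiple of a step per library, so reads were recovered: 100.0% of values were whole within 0.02 reads. The floor that a count of 0 leaves is 3 reads, or 0.19 to 0.543 in signal, for counting error only.

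Log2(signal + 1) was fitted for genes whose signal averaged 1 or more with limma 3.58.1 in R 4.3.3 (trended variance prior, 4 group means), two-sided, with Benjamini and Hochberg adjustment over 12879 genes. Errors are standard errors unless called SD. The edgeR 4.0.16 quasi-likelihood test on recovered reads called 28, 17, 0, 30 and 26 members and DESeq2 1.42.0 called 30, 18, 2, 31 and 29, in the order in which the results give the 5 comparisons. Fold changes on the log2(signal + 1) scale understate the change of low genes. The test was tried on simulated data. Whether replicates came from separate animals is given only as a label, so p-values may measure technical spread.

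Members and lists were chosen with earlier results of these data known. Named members were a set chosen for role, then in each comparison the 5 largest rises and 5 largest falls among members that passed without overlap, and up to 4 genes of each other list. Other genes named for their role (among them Dnaja2, Dnajb9, Dnajc3, Dnajc10, Hspa4, Hspa4l, Cct2, Cct8, Bag4, Hspb8, Hspb11 and Gm15542) were chosen after their values were seen. Deviations from group means correlated at a median r of 0.0049 between libraries with the same replicate number (18 pairs) and -0.0069 otherwise (36 pairs), so no pairing was used. Positions and exon overlaps come from GENCODE M21 (GRCm38), which held 76 of the 77 identifiers, and promoters from RefSeq. Motif positions count from 1 at the transcript start. Strand use in counting is not given in the sources used here.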

Additional observations from a re-analysis of the deposited data

How the results depend on the processing

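Under 24 alternatives the 50 results of named members gave 1194 values. None changed direction, 1075 kept their side of the threshold and 119 lost their call, and 27 of the 50 results kept it throughout. Counts of members that passed stayed within 1.5 times their value apart from these. At day 7 against day 0 a fit on the compared groups alone called 7. At day 30 against day 0 quantile normalisation called 3, the replicate block 1, the compared groups alone 9, DESeq2 2 and the omission of day 0 replicate 1 with day 7 replicate 2 called 18, against 0. The replicate block gave 26, 15, 31 and 25 members in the other comparisons in the order of the results and moved none of them over 1.5 times. With the day 30 libraries averaged, an alternative chosen after seeing the data, far fewer were called at day 30 against day 7 and fewer over the 4 groups. The share of all genes under it is not given here. Leaving out 1 library at a time gave 17 to 34 members at day 3 against day 0 (17 without day 3 replicate 2 or 3), 12 to 17 at day 7 against day 0, 0 to 8 at day 30 against day 0, 23 to 33 at day 7 against day 3, 15 to 31 at day 30 against day 7 (15 without day 30 replicate 2 or 3) and 35 to 45 over the 4 groups. The cause of these shifts was not tested, beyond the smaller number of samples.

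Other calls lost when 1 library was left out were Hspa9 at day 3 against day 0 (without day 0 replicate 2, or day 3 replicate 2 or 3), Hsp90ab1 at day 7 against day 0 (without day 0 replicate 1), Hspa8 at day 7 against day 3 (without day 3 replicate 2), Dnajc30 at day 30 against day 7 (without day 7 replicate 3, or day 30 replicate 2 or 3) and Hspd1 at day 7 against day 3 (also without any 1 day 3 library). Calls most often lost were Hspa5 (16 alternatives) and Hspa8 (12) at day 7 against day 0, Hsp90ab1 (15) and Hsp90b1 (9) at day 3 against day 0, and Dnajc15 (11), Bag6 (8) and Cct7 (7) at day 30 against day 7. Depth limits the statements on Hspb7, Hspb8, Dnajb13 and Dnajc12, whose signal came near that of 3 reads.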
